A study of Mus musculus with 6 samples.

Results

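The glycolysis and hypoxia response genes described here are 31 genes, chosen by symbol from the 25075 gene symbols of a count table of sorted mouse intestinal lymphocytes. Earlier results of these data were known when they were chosen. They cover glucose uptake, each enzymatic step of glycolysis, lactate production and export, the kinases that hold back pyruvate oxidation, and HIF-1α with 3 of its known target genes. All 31 were in the table and all 31 were among the 15261 genes that passed the filter on low counts. With libraries scaled by TMM factors (a correction of library size for uneven composition), 13 of the 31 were higher and 9 were lower in libraries labelled Batf-deficient, while 9 did not pass the test; over all genes tested 30.2% were higher and 34.1% lower. P4ha1 was 6.21-fold higher, Hk1 4.79-fold, Hif1a 3.43-fold, Slc2a3 3.30-fold and Aldoa 2.65-fold higher, whereas Pdk2, Slc16a1 and Tpi1 stood at 0.246, 0.299 and 0.351 of their level in the libraries labelled control. With the libraries scaled instead on 7 lymphoid genes, none of the 31 was higher and 28 were lower. That scaling left 2.06% of all genes tested higher and 86.4% lower. The direction of nearly all of the 13 higher members thus depended on the scaling, while the 9 lower members stayed lower. The make-up of each isoenzyme family within a library does not depend on that choice, and among the family members of this set it differed between the groups without overlap in all 8 families compared, in a table where the levels of 71.2% of all genes tested did not overlap either.

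Smart-seq2, which amplifies full-length cDNA from small inputs, was used to make 6 libraries from group 3 innate lymphoid cells (ILC3s) sorted as Lin- CD90.2+ KLRG1- from small intestine, with 2000 cells per sample and 2 ng of RNA. The 3 libraries labelled Batf-deficient came from mice with floxed Batf alleles and PLZF-Cre, and the 3 labelled control from mice with floxed Batf alleles without Cre, all on a B6 background. PLZF marks precursors of innate lymphoid cells as well as some innate-like T cells, so deletion by this Cre is confined neither to mature cells nor to ILC3s. The labels are silent on age, sex and any pooling of animals, while the series design calls the replicates biological.

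Total counts were 8228513 to 13615895 in libraries labelled Batf-deficient and 9080012 to 17334207 in those labelled control. Batf, the targeted gene and a transcription factor of the AP-1 family, went against its label, with 38.3, 41.3 and 41.3 CPM (counts scaled per library size and TMM factor) in libraries labelled Batf-deficient and 15.2, 15.3 and 19.0 CPM in those labelled control. Its log2 fold change was 1.29 (SE 0.16, adjusted p = 1.70e-05 by edgeR) with TMM factors and -1.09 with the 7-gene scaling. Counts per gene cannot tell a transcript of a Cre-deleted allele from a whole one. Markers of other tissues also differed. Of all counts, 23 pancreatic acinar genes, led by Amy2a4 and Cela2a, made up 0.000875 to 0.00120% in libraries labelled Batf-deficient and 11.9 to 12.3% in those labelled control, and 6 of the 23 (among them Amy2a1, Ctrc, Pnliprp1, Try4 and Cuzd1) were at 0 in every library labelled Batf-deficient. Intestinal epithelial markers, led by Krt8 and Defa24, made up 0.0967 to 0.114% in libraries labelled Batf-deficient and 2.12 to 2.32% in those labelled control. Plasma cell markers, led by Igha and Igkc, took 0.143 to 0.159% of counts in libraries labelled Batf-deficient and 1.52 to 1.54% in those labelled control. The 16 ILC3 identity genes, led by Il22 and Id2, took 1.17 to 1.23% of counts in libraries labelled Batf-deficient and 0.222 to 0.244% in those labelled control. T cell genes, led by Trbc2 and Trbc1, took 0.202 to 0.217% in libraries labelled Batf-deficient and 0.0387 to 0.0401% in those labelled control. Heat shock genes, led by Hspa1a and Hsp90aa1, took 4.76 to 5.09% in libraries labelled Batf-deficient and 0.177 to 0.183% in those labelled control. Stromal and muscle genes, led by Col1a2 and Col1a1, took 0.00548 to 0.00638% of counts in libraries labelled Batf-deficient and 0.114 to 0.121% in those labelled control. Endothelial genes, led by Pecam1 and Eng, took 0.0108 to 0.0136% in libraries labelled Batf-deficient and 0.0433 to 0.0491% in those labelled control. Of the 10 endothelial genes tested, 9 were lower, but Pecam1 was higher with TMM factors (log2 fold change 0.54, adjusted p = 0.0169 by edgeR). Pecam1 measured 80.4, 74.0 and 89.9 CPM in libraries labelled Batf-deficient and 52.8, 43.2 and 72.4 CPM in those labelled control. Enteric neuron and glia genes took 0.00452 to 0.00537% of counts in libraries labelled Batf-deficient and 0.00905 to 0.0122% in those labelled control. B cell genes, led by Blk and Cd79b, overlapped in sum, at 0.0139 to 0.0171% in libraries labelled Batf-deficient and 0.0150 to 0.0193% in those labelled control. Blk made up most of that sum in libraries labelled Batf-deficient. It had 923, 915 and 1868 counts there and 159, 272 and 361 in libraries labelled control. Of the 11 B cell genes tested, Blk was the 1 that was higher, and 9 were lower. Erythroid and platelet genes took 0.251 to 0.281% of counts in libraries labelled Batf-deficient and 0.336 to 0.349% in those labelled control. All 16 ILC3 identity genes were detected in both groups. The part of these cell and stress differences in the results that follow was not tested, and in bulk samples fewer cells of a type and less RNA per cell cannot be told apart.

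Glycolysis breaks glucose down to pyruvate in the cytosol, and most of its steps can be run by any of several isoenzymes that differ in tissue distribution and regulation. When oxygen is low, prolyl hydroxylases of the EGLN family no longer mark HIF-1α for destruction, and the stabilised factor binds RCGTG cores in the promoters of glucose transporter, glycolytic enzyme, lactate dehydrogenase and pyruvate dehydrogenase kinase genes. Activated lymphocytes also raise glycolysis in normal oxygen, and in intestinal ILC3s HIF-1α and mTOR signalling are known to support proliferation and cytokine production.

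The 31 genes together took 0.697 to 0.788% of all counts in libraries labelled Batf-deficient (mean 0.733% ± 0.0481, SD, n = 3) and 0.616 to 0.681% in those labelled control (0.653% ± 0.0340, SD, n = 3). The counts of members called stand against a table in which 30.2% of the genes tested were higher and 34.1% lower, 64.4% in all, by edgeR (quasi-likelihood, adjusted p under 0.05). The median log2 fold change of the 31 was 0.29 (range -2.02 to 2.64), beside 0.02 over all genes tested. CPM values of the groups did not overlap for 24 of the 31, against 71.2% of all genes tested. A differing gene was therefore the rule in this table, and the shares above describe the set without setting it apart. Scaled by library totals alone, 11 members were higher and 13 lower, where 20.0% and 42.5% of all genes were.

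**Figure D1:**
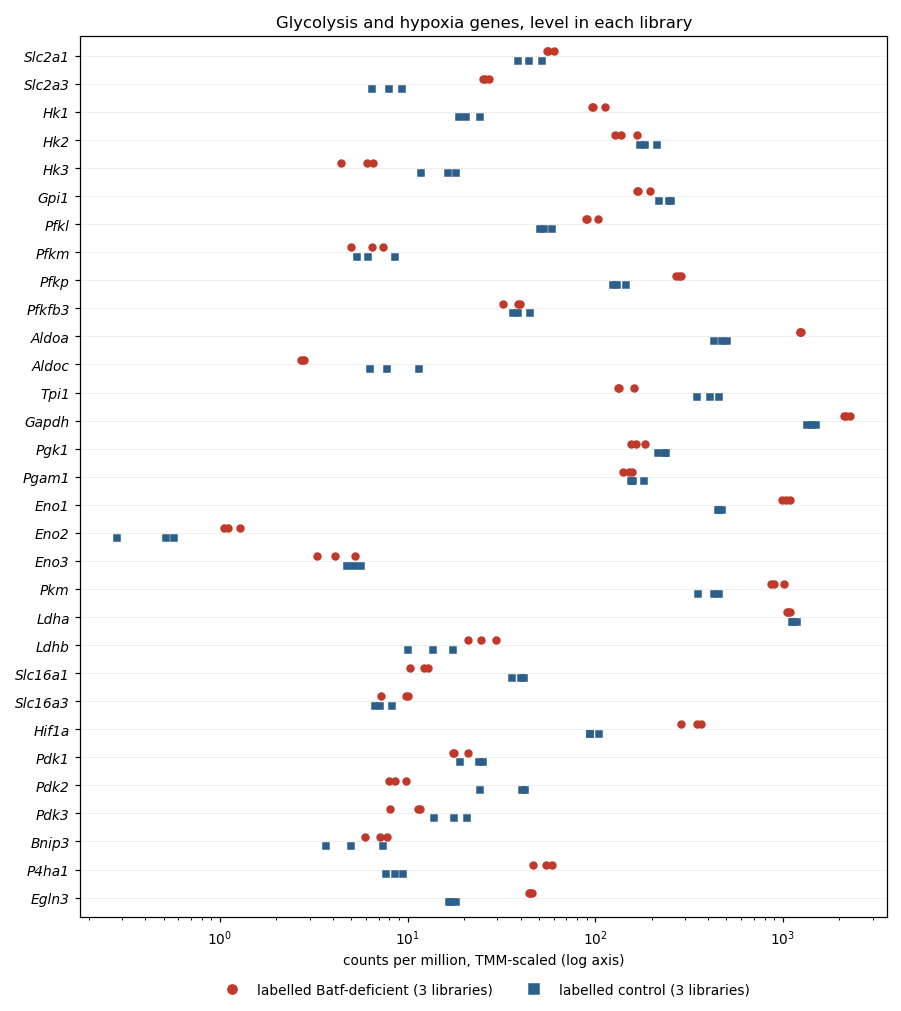
Level of each of the 31 genes in each library, in TMM-scaled CPM on a log axis; circles are the 3 libraries labelled Batf-deficient and squares the 3 labelled control. Replicates labelled control lie close together for genes such as Eno1 (452 to 474 CPM) and further apart for others, such as Pdk2 (24.3 to 42.3 CPM). The groups overlap for 7 of the 31 genes, among them Pfkm, Pgam1 and Bnip3.

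Glucose enters lymphocytes mainly through GLUT1, encoded by Slc2a1, and the high-affinity neuronal type transporter GLUT3, encoded by Slc2a3. Slc2a3 measured 27.2, 25.2 and 25.8 CPM in libraries labelled Batf-deficient and 9.33, 6.47 and 7.95 CPM in those labelled control. Every library labelled Batf-deficient was above every library labelled control, with a log2 fold change of 1.72 (SE 0.20, adjusted p = 1.23e-05 by edgeR), which was -0.66 with the 7-gene scaling. Slc2a1 measured 59.9, 56.3 and 55.0 CPM in libraries labelled Batf-deficient and 44.3, 38.5 and 51.7 CPM in those labelled control. The groups did not overlap, but the lowest value of one and the highest of the other were close. Its log2 fold change of 0.35 (SE 0.14, adjusted p = 0.0420 by edgeR) was -0.03 with library totals and -2.03 with the 7-gene scaling, and the call was lost in 5 of the 6 fits that left out a library (edgeR adjusted p up to 0.226), which leaves it thinly supported. Per exonic length, Slc2a3 made up 27.2, 26.9 and 27.9% of these transporter transcripts in libraries labelled Batf-deficient and 14.8, 12.1 and 11.2% in those labelled control. Slc2a1 remained the main transporter of the pair in every library.

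Hexokinases trap glucose in the cell as glucose 6-phosphate, and the family gave the largest shift of make-up among the enzymes of the set. Hk1, the constitutive mitochondria-bound form, measured 95.9, 96.6 and 112 CPM in libraries labelled Batf-deficient and 20.6, 18.8 and 24.3 CPM in those labelled control. All values of the first group were several times those of the second, with no overlap. Its log2 fold change was 2.26 (SE 0.14, adjusted p = 3.44e-08 by edgeR), while the 7-gene scaling gave -0.12 (adjusted p = 0.478 by edgeR). Hk2, the inducible form that HIF-1α and MYC are known to raise, measured 137, 127 and 167 CPM in libraries labelled Batf-deficient and 174, 184 and 213 CPM in those labelled control. The groups did not overlap, though replicate 3 labelled Batf-deficient came close to the lowest labelled control. Its log2 fold change was -0.40 (SE 0.13, adjusted p = 0.0143 by edgeR), a call lost without replicate 1 or 2 labelled Batf-deficient or replicate 3 labelled control (edgeR adjusted p = 0.0508, 0.0588 and 0.0565). Hk3, a form typical of myeloid cells, measured 6.51, 4.40 and 6.04 CPM in libraries labelled Batf-deficient and 16.5, 11.8 and 18.1 CPM in those labelled control. It was lower in all 3 libraries labelled Batf-deficient, with a log2 fold change of -1.44 (SE 0.27, adjusted p = 0.000575 by edgeR), beside macrophage, dendritic cell and granulocyte markers at 0.0117 to 0.0129% of counts in libraries labelled Batf-deficient and 0.111 to 0.122% in those labelled control.

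Of the transcripts of these 3 hexokinases, counted per exonic length, Hk1 made up 42.8, 45.4 and 42.3% in libraries labelled Batf-deficient and 10.6, 9.64 and 10.3% in those labelled control. Hk2 made up 53.0, 51.6 and 54.4% in libraries labelled Batf-deficient and 77.2, 81.6 and 78.5% in those labelled control. Hk2 therefore led among these 3 in every library, but over Hk1 by a count ratio of 1.31 to 1.49 in libraries labelled Batf-deficient and of 8.46 to 9.79 in those labelled control. The Hk2 share differed by -26.1 percentage points without overlap (exact two-sided permutation p = 0.1, the smallest that 3 against 3 libraries can give, and 0.1 after Benjamini-Hochberg adjustment over 8 families), and its sign turned, at 10.7 points, once the hexokinase Hkdc1 was counted as well. In plain counts the 95% Wilson intervals of single libraries lay between 53.3 and 60.2% for Hk2 in those labelled Batf-deficient and between 80.8 and 86.8% in those labelled control, so counting error was small beside the gap.

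The promoters of Hk1 and Hk2 are shown because the make-up of the family turned on these genes; they are the 250 bases before each RefSeq transcription start (GRCm38.p6), 5′ to 3′ on the gene's strand, with HIF core motifs in capitals. The cores searched were ACGTG and GCGTG on both strands, which appear as CACGT and CACGC where they lie on the other strand, and CACGTG holds an overlapping pair of them. Hk1 lies on chromosome 10 (62268855 to 62379908, minus strand, GENCODE M21 on mm10), and its first start has the window chr10:62379909-62380158 and its second chr10:62340422-62340671. Hk2 lies on chromosome 6 (82725025 to 82774454, minus strand), with the window chr6:82774455-82774704.
Hk1 first start: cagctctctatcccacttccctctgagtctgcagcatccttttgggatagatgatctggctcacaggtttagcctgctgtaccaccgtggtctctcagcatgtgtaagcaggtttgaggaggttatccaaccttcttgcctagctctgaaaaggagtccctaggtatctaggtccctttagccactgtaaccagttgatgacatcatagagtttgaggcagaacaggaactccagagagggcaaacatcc
Hk1 second start: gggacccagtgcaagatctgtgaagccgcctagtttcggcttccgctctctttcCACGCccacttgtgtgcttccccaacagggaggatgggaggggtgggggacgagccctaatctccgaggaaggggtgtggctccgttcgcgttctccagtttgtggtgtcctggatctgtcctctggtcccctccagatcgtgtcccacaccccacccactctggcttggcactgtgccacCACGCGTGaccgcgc
Hk2: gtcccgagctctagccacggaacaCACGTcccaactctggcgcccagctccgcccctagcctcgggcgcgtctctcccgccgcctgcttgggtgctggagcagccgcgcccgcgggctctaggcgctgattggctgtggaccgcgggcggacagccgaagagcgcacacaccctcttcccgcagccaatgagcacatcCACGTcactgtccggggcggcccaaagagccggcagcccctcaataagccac
No core was found before the first start of Hk1, whereas 3 lay before the second, beginning 196, 15 and 12 bases upstream, the last of them overlapping. Hk2 had 2, beginning 226 and 52 bases upstream. Counts per gene cannot say which Hk1 start was used. RefSeq windows were found for 30 of the 31 genes (not Slc2a3), 44 windows in all, of which 35 (79.5%) held at least 1 core, against 38.6% of 32851 promoter windows of the same length. The E-box CACGTG, which MYC and its relatives bind, was in 7 of the 44 (15.9%) and 6.02% of all windows. The AP-1 core TGANTCA was in 1 of the 44 (2.27%), before the second start of Aldoa, and in 6.75% of all windows. These matches describe letters in a window, windows of 1 gene can overlap, and base composition was not matched. The genes were also chosen as glycolysis and hypoxia response genes, so the contrast with all windows is not a result of these libraries.

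Glucose 6-phosphate isomerase, encoded by Gpi1, and the phosphofructokinases carry sugar through the committed step of glycolysis. Gpi1 measured 166, 170 and 195 CPM in libraries labelled Batf-deficient and 246, 219 and 254 CPM in those labelled control. It was lower in all 3 libraries labelled Batf-deficient, with a log2 fold change of -0.44 (SE 0.11, adjusted p = 0.00324 by edgeR). Pfkp, the platelet type subunit that dominates in lymphocytes, measured 271, 278 and 285 CPM in libraries labelled Batf-deficient and 145, 131 and 125 CPM in those labelled control. Every library labelled Batf-deficient was well above every library labelled control, with a log2 fold change of 1.06 (SE 0.10, adjusted p = 1.37e-06 by edgeR) that was -1.33 with the 7-gene scaling. Pfkl, the liver type, measured 89.0, 89.9 and 103 CPM in libraries labelled Batf-deficient and 58.7, 53.5 and 50.6 CPM in those labelled control. It did not overlap either, with a log2 fold change of 0.80 (SE 0.12, adjusted p = 8.45e-05 by edgeR) that was -1.59 with the 7-gene scaling. The muscle type Pfkm measured 7.35, 4.97 and 6.44 CPM in libraries labelled Batf-deficient and 5.37, 6.18 and 8.57 CPM in those labelled control. Those values overlapped, and the test did not pass (log2 fold change -0.11, SE 0.32, adjusted p = 0.786 by edgeR). Pfkp made up 70.5, 71.5 and 68.9% of the phosphofructokinase transcripts per length in libraries labelled Batf-deficient and 65.8, 64.9 and 63.9% in those labelled control, a difference of 5.45 points. Pfkfb3, which makes the fructose 2,6-bisphosphate that activates phosphofructokinase, did not pass the test (37.0 ± 4.04 against 40.0 ± 4.54 CPM in libraries labelled Batf-deficient and labelled control, SD, n = 3 each, adjusted p = 0.522 by edgeR), but was called lower with library totals (adjusted p = 0.0142 by edgeR).

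Aldolase splits the 6-carbon sugar, and its A form, encoded by Aldoa, was among the most abundant transcripts of the set. Aldoa measured 1252, 1226 and 1238 CPM in libraries labelled Batf-deficient and 473, 428 and 502 CPM in those labelled control. The replicates were tight and the groups far apart, with a log2 fold change of 1.41 (SE 0.09, adjusted p = 5.22e-08 by edgeR) that was -0.98 with the 7-gene scaling. Aldoc, the brain type, measured 2.77, 2.70 and 2.82 CPM in libraries labelled Batf-deficient and 7.73, 6.30 and 11.4 CPM in those labelled control. It was a minor form in both groups and lower in all 3 libraries labelled Batf-deficient, with a log2 fold change of -1.62 (SE 0.35, adjusted p = 0.00152 by edgeR). Its share of the pair per length was 0.135, 0.135 and 0.139% in libraries labelled Batf-deficient and 0.993, 0.894 and 1.38% in those labelled control. Tpi1, the triose phosphate isomerase that interconverts the products of aldolase, measured 132, 134 and 160 CPM in libraries labelled Batf-deficient and 410, 350 and 457 CPM in those labelled control. Its groups were about as far apart as those of Aldoa, but the other way, with a log2 fold change of -1.51 (SE 0.12, adjusted p = 4.61e-07 by edgeR).

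The payoff steps were split in the same manner. Gapdh, which makes the first NADH and is often used as a reference gene, measured 2172, 2122 and 2289 CPM in libraries labelled Batf-deficient and 1419, 1342 and 1507 CPM in those labelled control. It did not overlap between the groups, with a log2 fold change of 0.63 (SE 0.08, adjusted p = 3.81e-05 by edgeR) that was -1.76 with the 7-gene scaling. Pgk1, the X-linked phosphoglycerate kinase that yields the first ATP, measured 164, 155 and 183 CPM in libraries labelled Batf-deficient and 237, 215 and 234 CPM in those labelled control. It was lower in all 3, with a log2 fold change of -0.45 (SE 0.10, adjusted p = 0.00191 by edgeR). The next enzyme, phosphoglycerate mutase Pgam1, measured 151, 157 and 141 CPM in libraries labelled Batf-deficient and 182, 159 and 155 CPM in those labelled control. Its values overlapped, and it did not pass (adjusted p = 0.240 by edgeR), but was called lower with library totals (adjusted p = 0.000957 by edgeR).

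Eno1, the ubiquitous enolase, measured 1039, 985 and 1083 CPM in libraries labelled Batf-deficient and 458, 452 and 474 CPM in those labelled control. The groups were far apart, with a log2 fold change of 1.17 (SE 0.08, adjusted p = 1.67e-07 by edgeR) that was -1.22 with the 7-gene scaling. Eno3, the muscle enolase, measured 5.27, 3.27 and 4.10 CPM in libraries labelled Batf-deficient and 5.19, 4.75 and 5.61 CPM in those labelled control, and Eno2, the neuronal enolase, stayed under 1.3 CPM in every library. Neither passed the test (edgeR adjusted p = 0.467 for Eno3 and 0.101 for Eno2), and Eno1 made up 99.1, 99.3 and 99.3% of enolase transcripts per length in libraries labelled Batf-deficient and 98.1, 98.2 and 98.0% in those labelled control. Pkm, the pyruvate kinase of most tissues other than liver and red cells, measured 900.0, 865 and 1013 CPM in libraries labelled Batf-deficient and 427, 354 and 455 CPM in those labelled control. It did not overlap, with a log2 fold change of 1.17 (SE 0.11, adjusted p = 1.85e-06 by edgeR) that was -1.21 with the 7-gene scaling. Which splice form of Pkm was made cannot be read from counts per gene.

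Lactate dehydrogenase A turns pyruvate into lactate and is a classical HIF-1α target. Ldha measured 1086, 1062 and 1046 CPM in libraries labelled Batf-deficient and 1189, 1137 and 1116 CPM in those labelled control. The groups did not overlap, but the mean in libraries labelled Batf-deficient was 0.928 of that in those labelled control, and the test did not pass (log2 fold change -0.11, SE 0.08, adjusted p = 0.255 by edgeR). With library totals it was called lower (log2 fold change -0.49, adjusted p = 0.000261 by edgeR). Ldhb, the subunit that favours the return of lactate to pyruvate, measured 24.7, 20.9 and 29.5 CPM in libraries labelled Batf-deficient and 10.1, 13.6 and 17.4 CPM in those labelled control. Its log2 fold change was 0.86 (SE 0.23, adjusted p = 0.00573 by edgeR) and -1.51 with the 7-gene scaling, and the call was lost with library totals and without replicate 3 labelled Batf-deficient (edgeR adjusted p = 0.0772 and 0.0590). Ldha made up 96.8, 97.2 and 96.1% of the pair per length in libraries labelled Batf-deficient and 98.8, 98.3 and 97.8% in those labelled control.

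Lactate leaves cells through monocarboxylate transporters, MCT1 from Slc16a1 and the high-capacity exporter MCT4 from Slc16a3. Slc16a1 measured 10.3, 12.8 and 12.2 CPM in libraries labelled Batf-deficient and 40.35, 35.9 and 41.9 CPM in those labelled control. All 3 libraries labelled Batf-deficient were far below those labelled control, with a log2 fold change of -1.74 (SE 0.17, adjusted p = 1.97e-06 by edgeR). Slc16a3 measured 7.21, 9.80 and 10.1 CPM in libraries labelled Batf-deficient and 6.69, 8.30 and 7.11 CPM in those labelled control. These values overlapped, and the test did not pass (adjusted p = 0.362 by edgeR). Slc16a3 nevertheless made up 41.1, 43.3 and 45.2% of the pair per length in libraries labelled Batf-deficient and 14.2, 18.7 and 14.4% in those labelled control, a difference of 27.4 points that came with the lower Slc16a1.

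Pyruvate dehydrogenase kinases inactivate the complex that feeds pyruvate to mitochondria. Pdk1, the HIF-1α target among them, measured 17.6, 20.9 and 17.4 CPM in libraries labelled Batf-deficient and 24.04, 25.2 and 19.1 CPM in those labelled control. The groups overlapped, and the test did not pass (adjusted p = 0.182 by edgeR), while with library totals Pdk1 was called lower (log2 fold change -0.67, adjusted p = 0.00707 by edgeR). Pdk2, the form present in most tissues, measured 9.84, 7.96 and 8.53 CPM in libraries labelled Batf-deficient and 40.6, 24.3 and 42.3 CPM in those labelled control. It was the lowest of the 31 by fold change, at a log2 value of -2.02 (SE 0.23, adjusted p = 1.10e-05 by edgeR), with replicate 2 labelled control well below the others of its group. Pdk3 measured 11.4, 8.10 and 11.7 CPM in libraries labelled Batf-deficient and 20.6, 17.7 and 13.9 CPM in those labelled control. It was lower without overlap, with a log2 fold change of -0.74 (SE 0.24, adjusted p = 0.0172 by edgeR), but the call was lost without replicate 2 labelled Batf-deficient or replicate 1 labelled control (edgeR adjusted p = 0.0700 and 0.0529). Per length, Pdk2 made up 33.3, 31.1 and 30.0% of the 3 kinases in libraries labelled Batf-deficient and 55.7, 45.0 and 64.8% in those labelled control, while Pdk1 made up 25.8, 35.3 and 26.5% in libraries labelled Batf-deficient and 14.3, 20.2 and 12.7% in those labelled control. Per length the leading kinase was Pdk3 or Pdk1 in libraries labelled Batf-deficient and Pdk2 in every library labelled control. In plain counts Pdk1 led in all 3 libraries labelled Batf-deficient and, by 37.4% to 36.2% for Pdk2, in replicate 2 labelled control, so the ranking turned on the length correction. Pdk2 lies on chromosome 11 (95026258 to 95041354, minus strand, GENCODE M21 on mm10), and its promoters are shown as the largest fall of the set, with windows chr11:95041372-95041621 and chr11:95040876-95041125 and motifs in capitals as before.
Pdk2 first start: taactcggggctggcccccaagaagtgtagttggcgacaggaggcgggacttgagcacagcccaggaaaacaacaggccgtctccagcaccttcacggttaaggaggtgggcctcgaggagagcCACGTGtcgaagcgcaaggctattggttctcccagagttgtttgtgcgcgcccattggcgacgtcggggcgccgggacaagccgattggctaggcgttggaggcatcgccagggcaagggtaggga
Pdk2 second start: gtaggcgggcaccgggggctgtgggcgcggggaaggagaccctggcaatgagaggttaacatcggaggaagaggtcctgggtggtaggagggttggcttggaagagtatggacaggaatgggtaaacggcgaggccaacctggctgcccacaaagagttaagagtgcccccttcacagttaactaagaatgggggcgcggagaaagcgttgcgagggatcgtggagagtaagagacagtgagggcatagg
The first window held 1 CACGTG, beginning 126 bases upstream, and the second held no core.

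**Figure D2:**
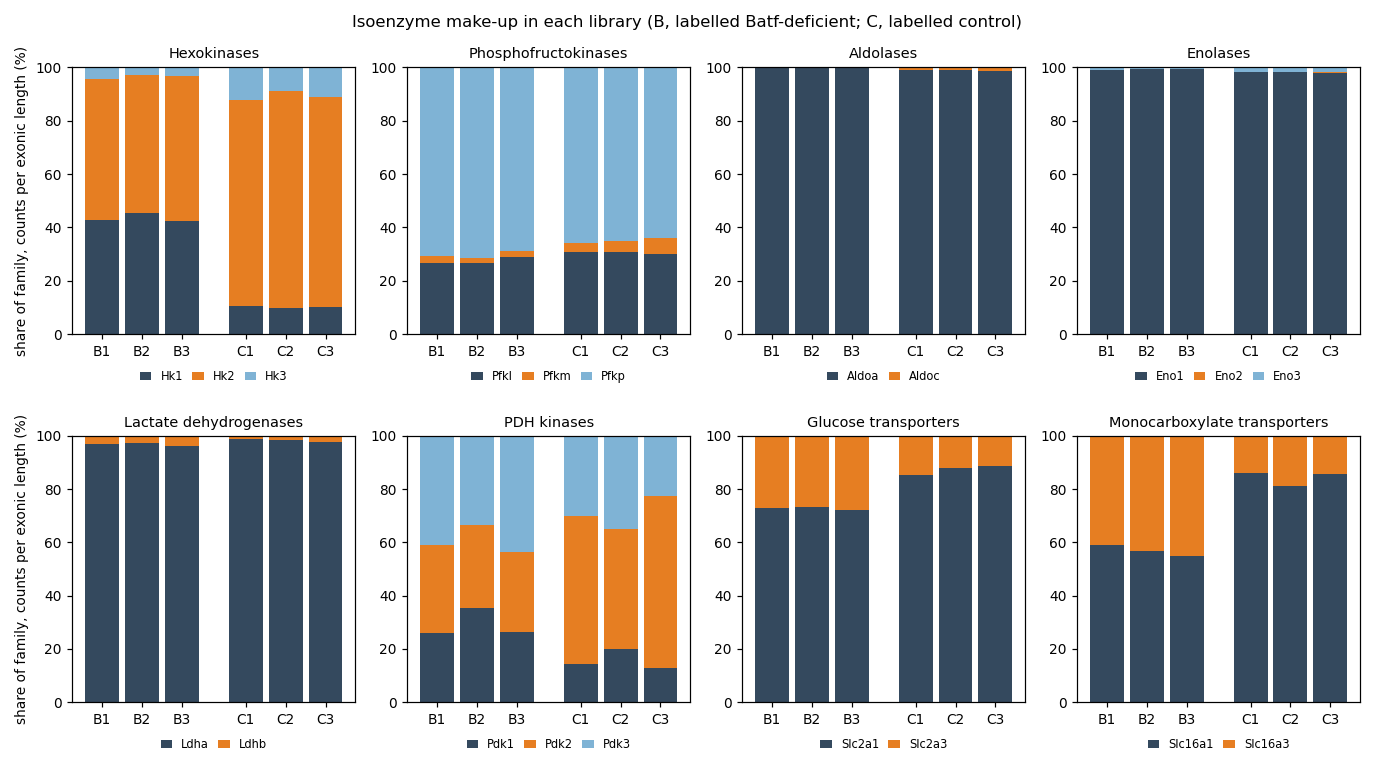
Make-up of 8 isoenzyme families in each library, as the share of each member in the family's counts per exonic length; B1 to B3 are the libraries labelled Batf-deficient and C1 to C3 those labelled control. Hk1 takes 42.3 to 45.4% of the transcripts of the 3 hexokinases of the set in B and 9.64 to 10.6% in C. Slc16a3 takes 41.1 to 45.2% of its pair in B and 14.2 to 18.7% in C.

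Over the 8 families, the share of the gene followed in each was higher in libraries labelled Batf-deficient without overlap in 5 (Pfkp, Eno1, Pdk1, Slc2a3 and Slc16a3) and lower in 3 (Hk2, Aldoc and Ldha). Each had an exact two-sided permutation p of 0.1, adjusted p = 0.1 over the 8, and 3 libraries against 3 cannot go lower. The differences of the hexokinase, Slc16a, Slc2a and Pdk shares were 13.5 percentage points or more in size, whereas those of the aldolase, enolase and lactate dehydrogenase shares were 1.59 points or less. Eno1 and Ldha were thus the main forms of their families in all 6 libraries.

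Hif1a, which encodes the oxygen-regulated subunit of HIF-1, measured 348, 364 and 288 CPM in libraries labelled Batf-deficient and 93.3, 104 and 93.9 CPM in those labelled control. All 3 libraries labelled Batf-deficient were far above, with a log2 fold change of 1.78 (SE 0.11, adjusted p = 5.31e-08 by edgeR) that was -0.61 with the 7-gene scaling. Because HIF-1α is controlled mainly through protein stability, its transcript level does not report its activity. P4ha1, a catalytic subunit of collagen prolyl 4-hydroxylase and a HIF-1α target, measured 54.7, 58.5 and 46.4 CPM in libraries labelled Batf-deficient and 8.58, 9.39 and 7.69 CPM in those labelled control. It had the largest rise of the 31, a log2 fold change of 2.64 (SE 0.17, adjusted p = 4.48e-08 by edgeR), and was the only member whose value stayed above 0 with the 7-gene scaling (0.24, adjusted p = 0.284 by edgeR). Egln3, the hydroxylase that HIF itself induces and that feeds back on it, measured 44.3, 44.6 and 45.7 CPM in libraries labelled Batf-deficient and 16.6, 17.0 and 18.1 CPM in those labelled control. Its replicates were close and its groups did not overlap, with a log2 fold change of 1.38 (SE 0.14, adjusted p = 3.06e-06 by edgeR) that was -1.003 with the 7-gene scaling. Bnip3, a mitophagy receptor and HIF target, measured 5.96, 7.10 and 7.81 CPM in libraries labelled Batf-deficient and 3.68, 7.38 and 4.99 CPM in those labelled control. Those ranges overlapped, and the test did not pass (adjusted p = 0.353 by edgeR).

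The promoter of P4ha1 is shown because its rise was the largest, with motifs in capitals as before; the gene lies on chromosome 10 (59323296 to 59373304, plus strand, GENCODE M21 on mm10) and the window is chr10:59323046-59323295.
P4ha1: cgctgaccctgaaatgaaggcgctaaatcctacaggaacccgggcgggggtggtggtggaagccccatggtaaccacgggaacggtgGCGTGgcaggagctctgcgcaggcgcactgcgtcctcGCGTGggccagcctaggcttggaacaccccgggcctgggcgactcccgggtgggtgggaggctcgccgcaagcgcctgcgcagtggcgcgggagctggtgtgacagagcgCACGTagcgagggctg
It held 3 cores, beginning 163, 126 and 16 bases upstream.

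**Figure D3:**
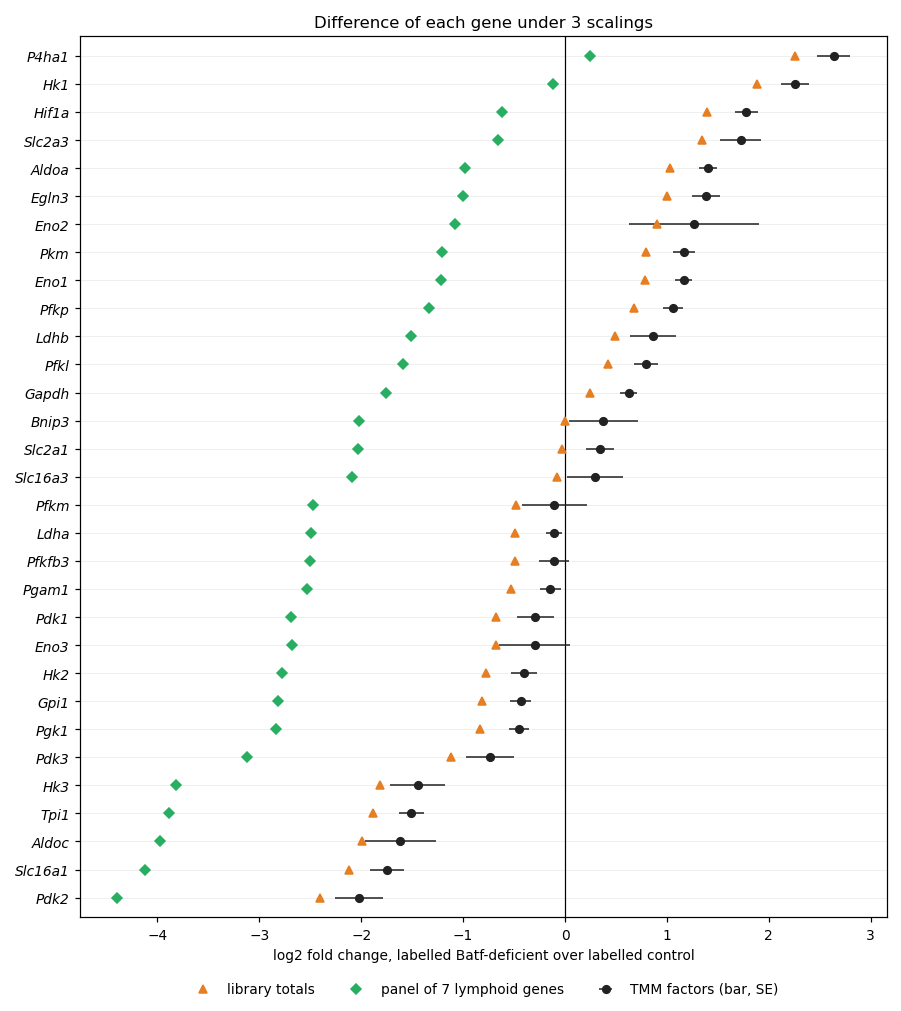
Log2 fold change of each of the 31 genes, labelled Batf-deficient over labelled control, with TMM factors (circles, bars are SE), library totals (triangles) and the 7-gene scaling (diamonds). Circles run from -2.02 for Pdk2 to 2.64 for P4ha1, and nearly all diamonds lie below 0, with P4ha1 at 0.24 and Hk1 at -0.12 as the highest.

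The 7-gene scaling sets the libraries on genes that T cells and innate lymphocytes share (Bcl11b, Cd247, Il7r, Lck, Thy1, Txk and Sh2d1a), whose own log2 fold changes with TMM factors ran from 0.69 for Sh2d1a, which did not pass the test (edgeR adjusted p = 0.210), to 3.63 for Cd247. It moved the median of all genes tested to -2.37 and that of the 31 genes to -2.09, and left 2.06% of all genes higher and 86.4% lower. The 3 members that it did not call were Hk1, P4ha1 and Eno2, at -0.12, 0.24 and -1.08, while Hif1a, Slc2a3, Aldoa and Egln3 came next at -0.61, -0.66, -0.98 and -1.003. Pdk2 stood at -4.39. Library totals gave a median of -0.36 over all genes and -0.08 over the 31 genes, and besides Slc2a1 no member that passed the test with TMM factors changed sign under them.

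The order of the genes by abundance within the set is a further description that needs no scaling between libraries. As a share of the summed level per exonic length of the 31 genes, Gapdh led with 35.8% ± 0.344 in libraries labelled Batf-deficient and 33.0% ± 0.568 in those labelled control (SD, n = 3 each, as for the shares that follow). Aldoa came second with 16.6% ± 0.458 in libraries labelled Batf-deficient, against 8.88% ± 0.265 in those labelled control, where Ldha came second with 21.0% ± 1.29, against 13.7% ± 0.576 in libraries labelled Batf-deficient. Tpi1 ranked 8 with 1.97% in libraries labelled Batf-deficient and 4 with 7.95% in those labelled control. Hk1 ranked 14 in libraries labelled Batf-deficient and 23 in those labelled control, and P4ha1 ranked 18 in libraries labelled Batf-deficient and 28 in those labelled control. Many glycolytic genes, Gapdh, Pgam1, Aldoa and Pkm among them, have processed pseudogenes or a second gene identifier under the same symbol, so reads can be shared with near-identical copies and the levels of those genes are uncertain to that extent.

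Isoenzymes typical of other tissues that are not members were looked at in 17 further genes, of which 11 were tested, 1 was higher and 6 were lower in libraries labelled Batf-deficient with TMM factors (median log2 fold change -4.07, and 11 lower with the 7-gene scaling). Of all genes tested, 30.2% were higher and 34.1% lower with TMM factors, and 86.4% were lower with the 7-gene scaling. Hkdc1, a hexokinase of epithelia whose gene neighbours Hk1 on chromosome 10 (62383137 to 62422491), measured 1.80, 0.710 and 0.966 CPM in libraries labelled Batf-deficient and 139, 122 and 139 CPM in those labelled control. It was lower in all 3 libraries labelled Batf-deficient, with a log2 fold change of -6.87 (SE 0.22, adjusted p = 1.25e-10 by edgeR). Counted per length with the 3 members, Hkdc1 led in every library labelled control, at 49.7, 46.4 and 44.9% beside 38.8, 43.8 and 43.2% for Hk2. With Hkdc1 in the family, Hk2 made up 52.6% ± 1.42 per length in libraries labelled Batf-deficient and 41.9% ± 2.70 in those labelled control (SD, n = 3 each), so the direction of the Hk2 share turned round, at 10.7 points, while that of Hk1 kept its sign at 37.8 points. With Slc2a2 and Slc2a4 added to the transporters, the Slc2a1 share turned in the same way to 1.34 points with overlap, from the -14.6 points of the pair, whereas that of Slc2a3 kept its sign at 17.0 points.

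**Figure D4:**
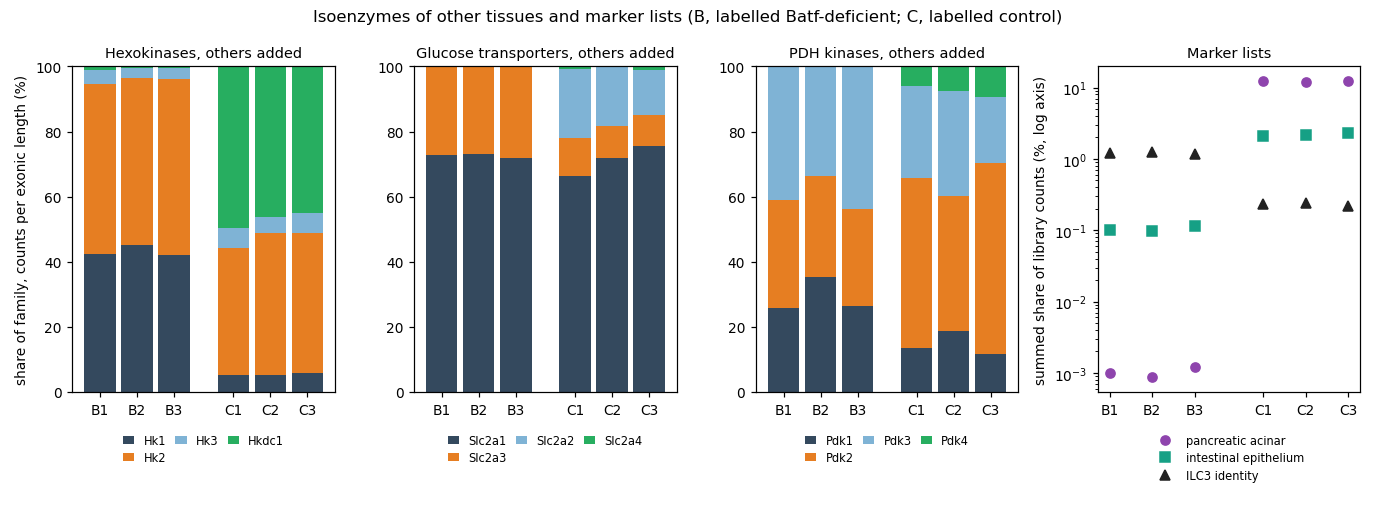
Make-up of the hexokinase, glucose transporter and pyruvate dehydrogenase kinase (PDH kinase) families per exonic length with isoenzymes outside the set added, and the summed share of library counts of 3 marker lists on a log axis; B1 to B3 are the libraries labelled Batf-deficient and C1 to C3 those labelled control. Hkdc1, Slc2a2 and Pdk4 take 0.685, 0.0771 and 0.161% of their families on average in B and 47.0, 17.7 and 7.55% in C, and the pancreatic acinar and epithelial lists are likewise lower in B.

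Slc2a2, the GLUT2 transporter of hepatocytes, beta cells and enterocytes, had 3 counts in the 3 libraries labelled Batf-deficient together and 858 in those labelled control, a ratio in CPM of 161 in favour of the libraries labelled control (95% counting interval 55.0 to 783). Pdk4, a kinase induced by fasting, had 2 counts in libraries labelled Batf-deficient and 393 in those labelled control, a ratio of 111 (30.5 to 918) in the same direction. The liver pyruvate kinase Pklr and the testis and hypoxia-induced regulator Pfkfb4 were lower as well, with log2 fold changes of -5.67 and -4.07 (SE 0.29 and 0.29, edgeR adjusted p = 7.14e-09 and 1.34e-07). These genes were low together with the acinar and epithelial marker lists given above, and the part of those cells in the result was not tested. The 1 gene of the list that was higher, the ADP-dependent glucokinase Adpgk, had a log2 fold change of 1.13 (SE 0.19, adjusted p = 0.000255 by edgeR), or -1.25 with the 7-gene scaling.

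Of 25 other hypoxia and HIF pathway genes, 22 were tested, 7 were higher and 6 were lower in libraries labelled Batf-deficient (median log2 fold change 0.09). With the 7-gene scaling none was higher, where 2.06% of all genes tested were. Epas1, which encodes HIF-2α, measured 333, 326 and 342 CPM in libraries labelled Batf-deficient and 99.8, 91.0 and 97.2 CPM in those labelled control, a log2 fold change of 1.80 (SE 0.09, adjusted p = 8.18e-09 by edgeR) that was -0.59 with the 7-gene scaling. Ero1a, an endoplasmic reticulum oxidase induced by hypoxia, measured 177, 184 and 157 CPM in libraries labelled Batf-deficient and 49.6, 42.1 and 46.3 CPM in those labelled control, a log2 fold change of 1.91 (SE 0.11, adjusted p = 2.93e-08 by edgeR) that was -0.48 with the 7-gene scaling. Rora, a lineage factor of innate lymphoid cells as well as a hypoxia-responsive gene, and Ddit4, an inhibitor of mTOR signalling, had log2 fold changes of 1.95 and 2.05 with TMM factors and -0.44 and -0.31 with the 7-gene scaling. Car9, the tumour-associated carbonic anhydrase that gut epithelium also makes, measured 6.38, 5.12 and 5.55 CPM in libraries labelled Batf-deficient and 41.2, 39.2 and 68.7 CPM in those labelled control, a log2 fold change of -3.13 (SE 0.25, adjusted p = 3.79e-07 by edgeR). Adm, the vasoactive peptide adrenomedullin, had 0 counts in libraries labelled Batf-deficient and 749 in those labelled control, at least 141-fold lower against a floor of 3 counts over the group. The genes of this list thus lay on both sides, as did all genes tested, of which 30.2% were higher and 34.1% lower with TMM factors.

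**Figure D5:**
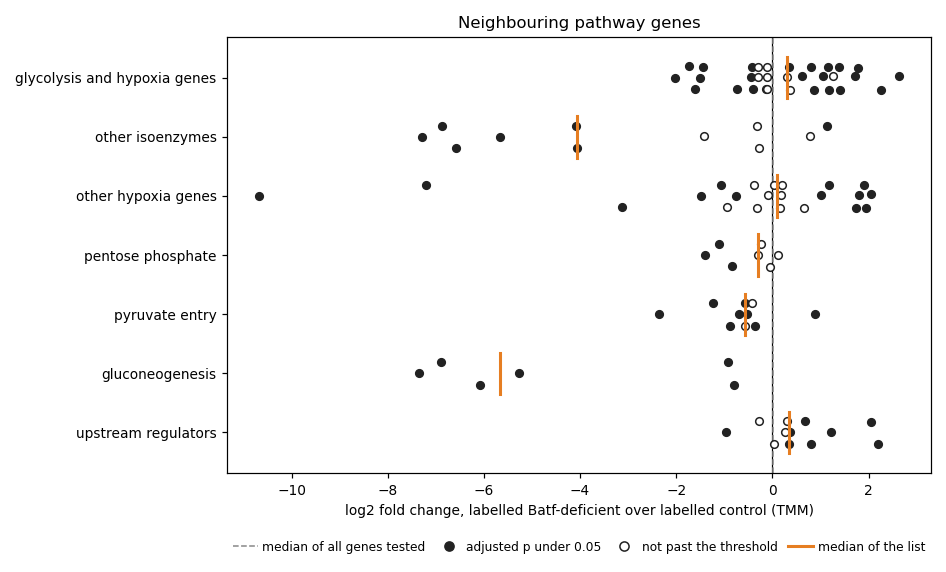
Log2 fold change, labelled Batf-deficient over labelled control with TMM factors, of the 31 genes and of 6 lists of neighbouring pathway genes; filled points have an adjusted p under 0.05, the short bar is the median of each list and the dashed line the median of all genes tested. The medians run from -5.67 for gluconeogenesis (-4.57 with G6pc, which had 0 counts in libraries labelled Batf-deficient, at its bound) to 0.35 for upstream regulators, and that of the 31 genes is 0.29. With the 7-gene scaling every median is below 0, as is that of all genes tested, at -2.37.

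The routes that branch from glycolysis held few genes that were higher in libraries labelled Batf-deficient. Of 7 genes of the pentose phosphate pathway, which makes NADPH and ribose, 3 were lower and none was higher with TMM factors. Of all genes tested, 34.1% were lower and 30.2% higher. With library totals 6 of the 7 were lower, where 42.5% of all genes were. With the 7-gene scaling all 7 were lower, where 86.4% of all genes were. The 3 that were lower with TMM factors were Pgd, Tkt and Taldo1, with log2 fold changes of -1.40, -0.84 and -1.12 (SE 0.11, 0.11 and 0.10, edgeR adjusted p = 2.89e-07, 2.24e-05 and 8.65e-07). G6pdx, the entry enzyme, did not pass (adjusted p = 0.577 by edgeR). Of 10 genes that carry pyruvate into mitochondria or act on the pyruvate dehydrogenase complex, 7 were lower and 1 was higher. Over all genes tested those shares were 34.1% and 30.2%. The mitochondrial pyruvate carrier genes Mpc1 and Mpc2 measured 112 ± 12.8 and 36.8 ± 2.56 CPM in libraries labelled Batf-deficient and 162 ± 8.42 and 87.1 ± 2.20 CPM in those labelled control (SD, n = 3 each), and the complex subunits Pdha1 and Dld and the carboxylase Pcx had log2 fold changes of -0.57, -0.69 and -2.36. The phosphatase Pdp1, which reverses the action of the kinases described above, was the gene that was higher (log2 fold change 0.89, SE 0.20, adjusted p = 0.00205 by edgeR), and it was -1.51 with the 7-gene scaling. All 6 gluconeogenesis genes were lower, with log2 fold changes of -0.81 for G6pc3 to -6.89 for Pck1 among the 5 with counts in both groups. G6pc, with 0 counts in every library labelled Batf-deficient, was lower by at least 14.7-fold against a floor of 3 counts over the group. Fbp2, Pck1 and Fbp1, which liver, kidney, muscle or gut epithelium make, had log2 fold changes of -5.27, -6.89 and -6.07, and Pck2 -0.93, beside the same marker lists.

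Upstream of glycolysis act the PI3-kinase, AKT, mTOR and AMP-activated kinase pathways and the factors MYC and IRF4. Of 12 such regulators, 7 were higher and 1 was lower with TMM factors, but with library totals 4 were higher, without replicate 1 labelled Batf-deficient there were 4, and with the 7-gene scaling there was none. Among all genes tested, 30.2% were higher and 34.1% lower with TMM factors. Pik3cd, the leukocyte PI3-kinase subunit, measured 199, 185 and 203 CPM in libraries labelled Batf-deficient and 45.6, 40.4 and 42.7 CPM in those labelled control, a log2 fold change of 2.19 (SE 0.11, adjusted p = 4.28e-09 by edgeR) that was -0.20 with the 7-gene scaling. Irf4, a partner of BATF on DNA that is known to support glycolytic genes in T cells, measured 32.0, 33.2 and 34.3 CPM in libraries labelled Batf-deficient and 5.37, 13.7 and 4.93 CPM in those labelled control. Its log2 fold change was 2.04 (SE 0.34, adjusted p = 0.000349 by edgeR) and -0.37 with the 7-gene scaling, with replicate 2 labelled control above the others of its group. The mTOR pathway genes Tsc1 and Rheb and the AMP-activated kinase subunit Prkaa1 had log2 fold changes of 1.21, 0.80 and 0.68 with TMM factors and -1.17, -1.60 and -1.71 with the 7-gene scaling. Akt1 was the gene that was lower, at -0.96 (SE 0.15, adjusted p = 0.000128 by edgeR), and Myc did not pass (log2 fold change 0.02, adjusted p = 0.893 by edgeR).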

How the data were processed

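RNA of 6 sorted cell samples was measured by Smart-seq2, per the labels' protocols, and the authors deposited raw counts per gene symbol, whole numbers in 1 table. The submitters' processing notes name mm10 as the build; of the aligner, the counter, its annotation and strand setting nothing is said, so they are not given in the sources used. Groups came from titles and genotype labels, 3 libraries each. Smart-seq2 as used here has no molecular identifiers, so intervals (95%, Wilson) and floors (3 counts, 0.173 to 0.365 CPM per library) cover counting error only.

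Counts were tested with edgeR 4.0.16 (R 4.3.3): TMM factors, filterByExpr by group (minimum count 10), the robust quasi-likelihood test, two-sided, with Benjamini-Hochberg adjustment over 15261 genes. CPM are TMM-scaled, SE is the log2 fold change divided by the square root of F, and fold is 2 to the power of the log2 fold change. The script was tested on simulated data. Isoenzyme shares are counts per exonic length (GENCODE M21, union of exons) within each library, compared by exact permutation (scipy 1.17.1). Alternatives were DESeq2 1.42.0, library totals, scaling on 7 lymphoid genes by the median of log ratios, no filter, the replicate block, leaving out each library, and counting replicates 1 and 2 labelled Batf-deficient as 1 sample. These were the most alike libraries (chi-square per gene 2.36, other same-group pairs 14.8 to 24.2) but differed by more than sampling noise, and were kept apart. The 7 genes were chosen after earlier results of these data had been seen.

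The 31 members and all lists were chosen with earlier results of these data known. All 31 were named. From each other pathway list up to 6 genes with the lowest p past the threshold were named, plus isoenzymes above a member of their family; G6pdx and Myc were added after their values had been seen. Some genes are not reported here. Motifs were searched in RefSeq windows on GRCm38.p6.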

Additional observations from a re-analysis of the deposited data

How the results depend on the processing

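With the 7-gene scaling 315 genes were higher and 13178 lower over the whole table, 0 and 28 among the 31 members, and 0 and 64 among the other pathway genes, while library totals left 3048 genes higher over the whole table. Under the 7-gene scaling Batf turned to -1.09, and log2 fold changes also turned negative for Slc2a1 (-2.03), Slc2a3 (-0.66), Hk1 (-0.12), Pfkl (-1.59), Pfkp (-1.33), Aldoa (-0.98), Gapdh (-1.76), Eno1 (-1.22), Eno2 (-1.08), Pkm (-1.21), Ldhb (-1.51), Slc16a3 (-2.09), Hif1a (-0.61), Bnip3 (-2.02), Egln3 (-1.003), Adpgk (-1.25), Rora (-0.44), Epas1 (-0.59), Ero1a (-0.48), Ddit4 (-0.31), G6pdx (-2.25), Pdp1 (-1.51), Pik3cd (-0.20), Tsc1 (-1.17), Irf4 (-0.37), Rheb (-1.60), Prkaa1 (-1.71) and Myc (-2.36). Library totals turned Slc2a1 to -0.033 and added lower calls for Pfkfb3, Pgam1, Ldha and Pdk1. Adding isoenzymes outside the set turned the Hk2 share difference to 10.7 points and that of Slc2a1 to 1.34. The cause of these changes was not tested, beyond the construction of each scaling. Without 1 library, 11 to 13 members were higher and 7 to 9 lower, and DESeq2 gave 12 and 9. Replicate numbers did not pair the libraries (same-number correlations 0.0106 to 0.0475); with the replicate block 13 members were higher and 9 lower, 17 and 29 of the other pathway genes, and no call of a named gene changed. For the shares, 3 pairs allow an exact p of 0.25 at best. Depth limits Eno2, Slc2a2, Pdk4 and other genes near the floor.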
